A study of Drosophila melanogaster with 64 samples.

Results

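The 10 genes described here encode heat shock proteins of Drosophila melanogaster and were taken by symbol, as 10 of the 17606 genes in the count table: Hsp22, Hsp23, Hsp26, Hsp27, Hsp67Ba, Hsp67Bc, Hsp68, Hsp83, Hsp60B and Hsp60C. Heat shock proteins are molecular chaperones, which bind unfolded or partly folded proteins, keep them from aggregating and help them reach their folded form. Several are made only after heat or other stress, and others are made in unstressed cells as part of a developmental programme, the male germline among them. Small heat shock proteins (Hsp22, Hsp23, Hsp26, Hsp27, Hsp67Ba and Hsp67Bc) hold unfolded proteins without using ATP. Hsp68 is a stress-inducible member of the Hsp70 family, Hsp83 is the cytosolic Hsp90, and Hsp60B and Hsp60C are Hsp60 chaperonins that are expressed in the testis and whose loss makes males sterile.

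The libraries come from testes of males that carry a translocation between the X chromosome and chromosome 2, T(1;2), or of males of the irradiated parental stock that serves as their control. For the 5 lines with sterile males (BM1, BM5, BM6, BM24 and BM46), the labelled genotype sets the translocation over the balancer FM7i, P{ActGFP}JMR3. For the 2 fertile translocation lines (BM4 and BM21) it is set over the attached X chromosome C(1)M4, y. The label of the parental stock, also fertile, names C(1)M4, y without a translocation. FM7i and C(1)M4 are read here as chromosomes of the females that maintain a stock, not of the males sampled. The labels of all 8 lines also name the duplication Dp(1;1)scV1, with y2, y+, sc+ and scV1 and the markers su(wa), wa, cv, v and f. Each line is 1 translocation, so sterility, the chromosomes of the stock and the breakpoints of a line cannot be told apart. Every line was sampled as adult testes (males 1 to 5 days old, pools of 20 testes cut from the seminal vesicle) and as testes of immobilised larvae late in the third instar, L3 (pools of 15 testes), with 4 pools of each, 64 libraries in all, from animals kept at 25 °C. Papain and collagenase were used to free the L3 testes of fat body, so that for genes that answer to stress the stage and this handling cannot be told apart. Pools are not said to come from separate crosses, and p-values measure the spread between these samples, which may be partly technical.

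Total counts per library ran between 20387 and 24650332 in adult testes and between 8961413 and 21275143 in L3 testes. Adult libraries with under 1000000 counts numbered 3 (BM6 replicate 3 and BM24 replicates 2 and 3), and levels per library are given below for the 29 adult and 32 L3 libraries above that depth. Levels are counts per 1000000 counts of a library (CPM) after TMM scaling, and RPKM is CPM per kilobase of the exon length in the count table. All 8 germline marker genes had counts in both stages, with line sums of 6408 to 7453 CPM in adult testes and 2941 to 3607 CPM in L3 testes. The sums follow the abundant Mst98Ca, dj and Mst77F, which were higher in adult testes (Mst98Ca 2380 to 2863 CPM, against 938.3 to 1190 CPM in L3). The lines of vas, bam, aly, can and sa were lower in adult testes (vas 11.49 to 19.08 CPM, against 27.42 to 44 CPM in L3). Marker genes of other tissues were also present: the summed level of 16 muscle genes was 1089 to 1424 CPM in adult and 409.6 to 604 CPM in L3 testes, and that of 12 fat body genes was 194.1 to 503.2 CPM in adult and 249.2 to 1581 CPM in L3 testes. Adult BM24 replicates 2 and 3, both under 1000000 counts, had 9844 and 9827 CPM of these fat body genes, which weigh little in the line sum. For 23 accessory gland genes, the adult line sums spanned 44.18 to 3498 CPM, and 7 adult libraries, 4 of them from sterile lines, stood above the rest in these genes. In testes as whole organs, fewer cells of a type and less RNA per cell cannot be told apart.

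The genes of the small heat shock proteins lie together on chromosome 3L, where 6 members fall within 14.2 kb, at positions 9371511 to 9385694 in the coordinates of the count table, which are those of BDGP6 for all 10 members. Hsp67Bc (FBgn0001229) stands first at 9371511 to 9372497, followed by Hsp22 (FBgn0001223) at 9372931 to 9374964 and Hsp26 (FBgn0001225) at 9376418 to 9377427. Hsp67Ba (FBgn0001227) follows at 9377802 to 9379534, Hsp23 (FBgn0001224) at 9381882 to 9382765 and Hsp27 (FBgn0001226) at 9384063 to 9385694. The other 4 members lie apart: Hsp83 (FBgn0001233) at 3192969 to 3197059 on 3L, Hsp68 (FBgn0001230) at 24055080 to 24057310 on 3R, Hsp60B (FBgn0011244) at 728362 to 730564 on 2L and Hsp60C (FBgn0031728) at 5662849 to 5670838 on 2L.

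Hsp22, which encodes a small heat shock protein of the mitochondrial matrix, had 0 counts in all 64 libraries, out of 947895598 counts in all, but its level could not be measured from this table. All of its 1900 exon bases lie within exons of CG4456 on the same strand, and a read that falls in both genes has no single gene to be counted for. Across the table, 363 of 367 genes whose exons lie wholly within those of another gene on the same strand had 0 counts in every library. CG4456 itself (9372722 to 9374964 on 3L), with 209 exon bases outside Hsp22, was counted, at 18.2 ± 2.54 CPM in adult and 9.89 ± 1.06 CPM in L3 testes (SD over 8 line levels each), a stage difference of 0.88 ± 0.07 on the log2 scale (SE; adjusted p = 6.02e-07, edgeR quasi-likelihood test). In the shared bases, reads of CG4456 and of Hsp22 cannot be separated. The level and stage difference given for CG4456 thus rest on its 209 bases outside Hsp22. Of 119 genes wholly covered by exons on the opposite strand, 119 had counts, so the antisense RNA CR43481, which covers 75.9% of the exon bases of Hsp67Ba, did not remove its counts. The other 9 members passed the low-count filter in every comparison, and counts of members below are out of these 9.

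Per length, the chaperonins and Hsp83 were the most abundant members in adult testes and Hsp67Bc the least. Hsp60C stood at 912.1 ± 92.8 RPKM, Hsp60B at 596.7 ± 62.2 RPKM and Hsp83 at 595.5 ± 86.7 RPKM (SD over 8 line levels, as below), and Hsp60B and Hsp83 lay within each other's spread. Hsp26 (341.7 ± 42.3 RPKM) and Hsp23 (309.9 ± 69.8 RPKM) also lay within each other's spread. Below them came Hsp27 (186.6 ± 16.1 RPKM), Hsp68 (87.61 ± 12.2 RPKM), Hsp67Ba (21.49 ± 3.61 RPKM) and Hsp67Bc (5.43 ± 1.20 RPKM), each clear of its neighbours. The order differed in L3 testes. Hsp83 led there at 923.1 ± 67.0 RPKM, then Hsp26 at 662.1 ± 48.1 RPKM and Hsp60C at 561 ± 67.0 RPKM, whose spreads met. Hsp60B (298.7 ± 39.1 RPKM), Hsp27 (296.4 ± 25.3 RPKM) and Hsp23 (286.2 ± 48.3 RPKM) were within each other's spread, above Hsp68 (169.6 ± 13.1 RPKM), Hsp67Ba (18.83 ± 2.39 RPKM) and Hsp67Bc (4.39 ± 0.871 RPKM).

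Beside these, the chaperonin of all tissues, Hsp60A, stood at 221 RPKM in adult and 278 RPKM in L3 testes, and Hsp60D at 234 RPKM in adult and 94.6 RPKM in L3 testes. The constitutive cytosolic Hsp70, Hsc70-4, stood at 703 RPKM in adult and 935 RPKM in L3 testes. The stress-inducible Hsp70 genes were near the bottom: 6 of them summed to 2.42 to 14.59 CPM per line in adult and 1.51 to 3.718 CPM in L3 testes. They are near-identical copies, so the share of each is uncertain. Reads that match several copies may be missing from the counts, so their sum is uncertain too and may be too low.

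**Figure D1:**
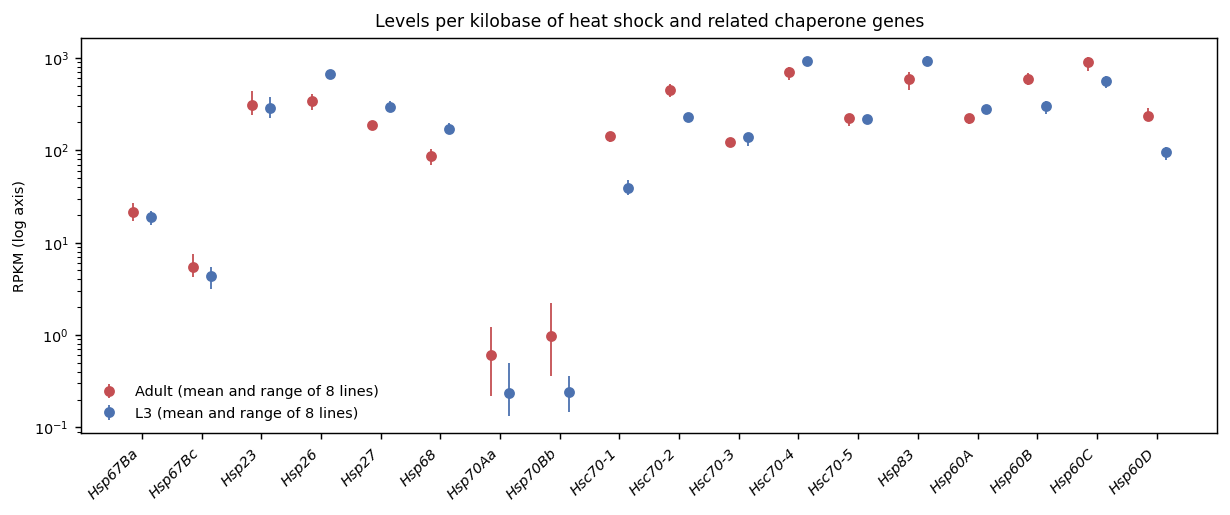
Levels per length (RPKM, log axis) of 9 heat shock protein genes and of related Hsp70 and Hsp60 genes in adult and L3 testes; points are means and bars the range over 8 lines. Hsp60C (912.1 RPKM) leads the members in adult testes and Hsp83 (923.1 RPKM) in L3 testes. The inducible Hsp70 genes lie far below as counted, but they are near-identical copies and reads may be missing from their counts.

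The chaperonins were higher in adult than in L3 testes. Hsp60B, known in flies for its role in spermatid individualisation, had 1056 CPM at the lowest, 1303 CPM at the median and 1732 CPM at the highest of the 29 adult libraries, against 511.3, 684.8 and 818.8 CPM in the 32 L3 libraries. No library of one stage reached the range of the other. Its stage difference over the 8 lines was 1.01 ± 0.05 on the log2 scale (SE, here and below; adjusted p = 9.49e-09, edgeR quasi-likelihood test on the summed counts of each line and stage, with the line as a block). Hsp60C, needed in flies for both male fertility and the tracheal system, had 1431, 1979 and 2504 CPM (lowest, median, highest) in adult libraries, against 930.2, 1243 and 1502 CPM in L3 libraries. The ranges of Hsp60C overlapped slightly, while the adult level was above the L3 level in every line, and the difference was 0.71 ± 0.05 (adjusted p = 2.03e-07).

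The levels of Hsp60B in single lines were likewise apart between the stages. Adult Hsp60B stood at 1282 CPM in BM1, 1331 in BM5, 1148 in BM6, 1285 in BM24 and 1472 in BM46, at 1338 in BM4 and 1135 in BM21, and at 1524 CPM in the parental stock. L3 Hsp60B stood at 747.8 CPM in BM1, 726.5 in BM5, 586.5 in BM6, 619.8 in BM24 and 737.1 in BM46, at 548.5 in BM4 and 564.8 in BM21, and at 733.5 CPM in the parental stock. The lowest adult line (BM21) was thus above the highest L3 line (BM1).

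The heat-inducible Hsp68, the Hsp90 gene Hsp83 and the small heat shock genes Hsp26 and Hsp27 were lower in adult than in L3 testes. Hsp83, whose product holds kinases and steroid receptors in an activatable form, had 1199, 1699 and 2267 CPM (lowest, median, highest) in adult libraries, against 2278, 2747 and 3251 CPM in L3 libraries, and fell by 0.64 ± 0.07 on the log2 scale (adjusted p = 3.56e-06). Hsp68 had 129.4, 199.2 and 261.6 CPM in adult libraries, against 310.9, 379.1 and 461.2 CPM in L3 libraries. Its difference was -0.96 ± 0.06 (adjusted p = 2.81e-08). Neither gene had an adult library within its L3 range.

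Hsp26, a cytosolic small heat shock protein, had 241.3, 357.6 and 444 CPM (lowest, median, highest) in adult libraries, against 591.8, 660.6 and 779.9 CPM in L3 libraries, with a difference of -0.96 ± 0.05 (adjusted p = 8.43e-09). Hsp27, a small heat shock protein found in the nucleus, had 236.4, 308.5 and 377.2 CPM in adult libraries, against 390.4, 492.1 and 587.6 CPM in L3 libraries, with a difference of -0.66 ± 0.06 (adjusted p = 1.24e-06). Here too the libraries of the stages did not overlap.

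The remaining genes of the cluster did not fall with Hsp26 and Hsp27. Hsp23, another cytosolic small heat shock protein, had 145.4, 267.7 and 450.7 CPM (lowest, median, highest) in adult libraries, against 183.2, 242.2 and 367 CPM in L3 libraries, and its difference over the lines, 0.11 ± 0.08, did not pass the test (adjusted p = 0.243). Hsp67Ba, which encodes an alpha-crystallin domain protein, had 26.62, 36.97 and 51.01 CPM in adult libraries, against 22.8, 33.24 and 42.44 CPM in L3 libraries. It was called higher by a small margin (0.19 ± 0.08; adjusted p = 0.0463), a call lost without a low-count filter (adjusted p = 0.0513), without the libraries rich in accessory gland RNA (0.0731) and on leaving out any line but BM24 (0.0549 to 0.121). Hsp67Bc, related to the human HSPB8 that works with a BAG-family partner in autophagy, had 1.473, 4.879 and 11.27 CPM in adult libraries, against 2.518, 4.422 and 6.307 CPM in L3 libraries. Its difference was 0.31 ± 0.16 (adjusted p = 0.108), and 0.40 without BM46 (adjusted p = 0.0449).

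In all, 7 of 9 members were called between the stages, 3 higher and 4 lower in adult testes, where 78.5% of the 14230 genes tested were called, 40.2% higher and 38.3% lower. The share of members is near that of all genes. Line levels of adult and L3 testes did not overlap for 6 of 9 members, and for 42.2% of all genes. Scaling by library size alone moved the median stage difference of all genes to -0.38, from 0.04 with TMM scaling. On that scale Hsp23 stood at -0.32 (adjusted p = 0.00203, edgeR) and Hsp67Ba at -0.23, both called lower, and Hsp67Bc at -0.11, not called. The direction of these genes thus depends on the scaling, while that of the other 6 was the same under both.

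**Figure D2:**
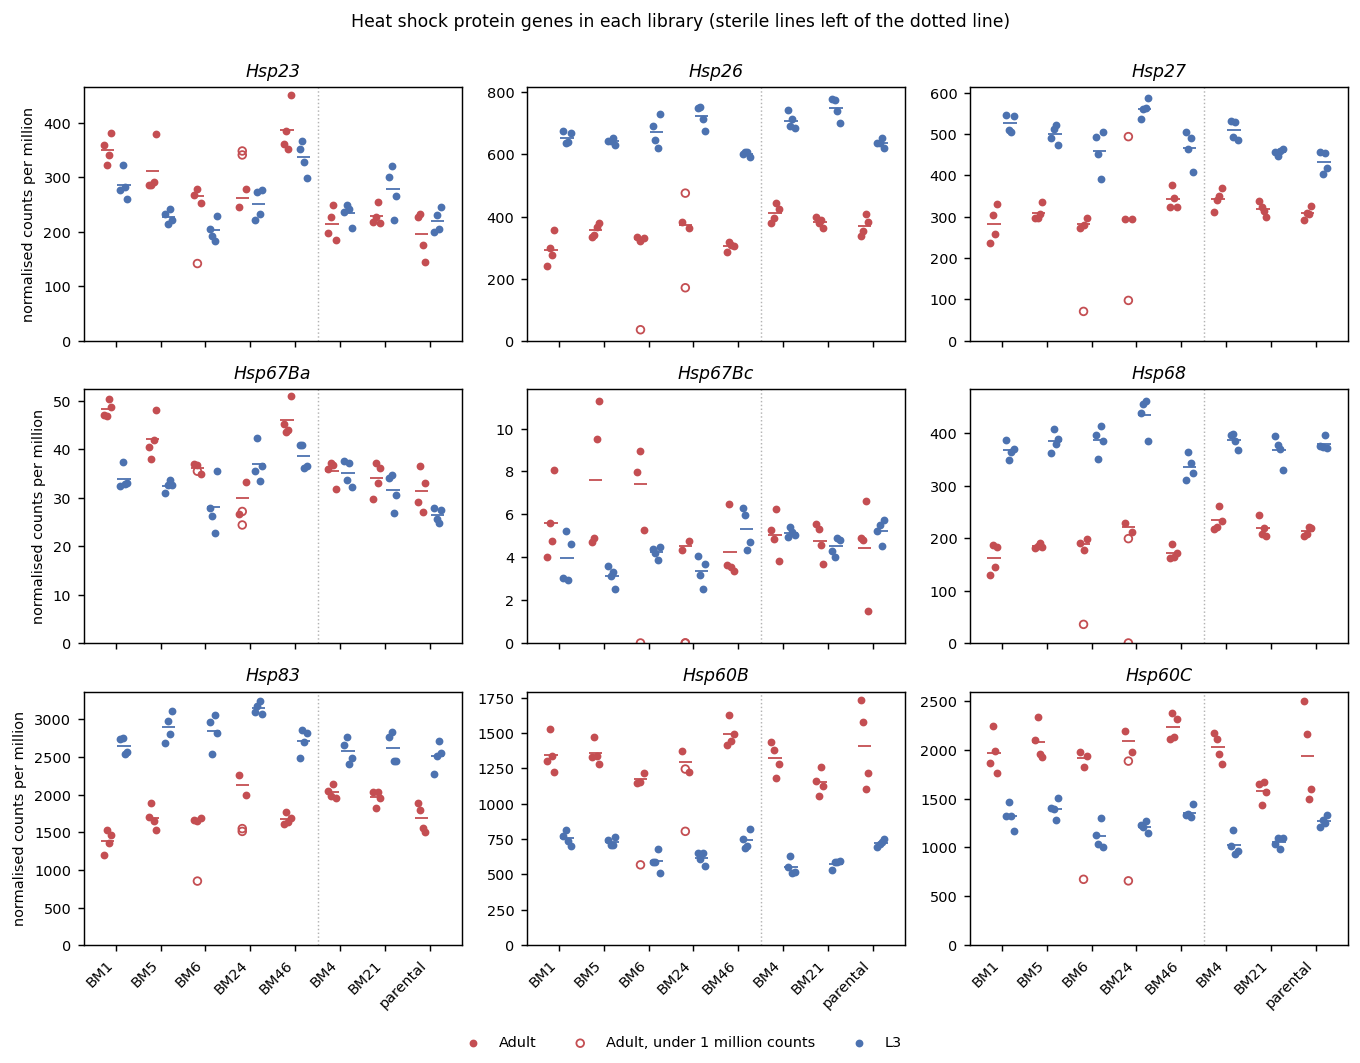
CPM of each of 9 heat shock protein genes in every library, adult left of L3, with sterile lines set apart from fertile lines by a dotted line; open circles are the adult libraries under 1000000 counts. Hsp60B and Hsp60C lie higher in adult testes, Hsp26, Hsp27, Hsp68 and Hsp83 higher in L3 testes, and Hsp23 differs between adult lines.

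Within single lines, the same test on the 8 libraries of a line made 60 calls in 72 tests of the members. BM1 had 8 members called of 9 (80.3% of all genes), BM5 9 (77.4%), BM6 9 (76.9%), BM24 6 (69.3%), BM46 8 (78.9%), BM4 6 (77.8%), BM21 7 (75%) and the parental stock 7 (74.6%). Hsp60B was higher in adult testes of 8 of 8 lines (log2 differences 0.84 to 1.29). Hsp60C was called higher in 7 of 8, with 0.41 in BM24 (adjusted p = 0.236). Adult BM24 replicates 2 and 3 held under 1000000 counts. Their summed fat body genes stood at 9844 and 9827 CPM, against 235.1 and 452.5 CPM in replicates 1 and 4. Depth and fat body RNA both limit all stage values of that line and cannot be told apart there. Hsp60C averaged 2086 CPM in its other adult libraries and 1215 CPM in its L3 libraries. Hsp26 (-1.12 to -0.75), Hsp27 (-0.92 to -0.44), Hsp68 (-1.27 to -0.69) and Hsp83 (-0.90 to -0.31) were lower in 8 of 8.

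Hsp23 went different ways in different lines. It was higher in adult testes of BM1 (0.33), BM5 (0.47), BM6 (0.41) and BM46 (0.21), all sterile lines, and lower in the fertile BM21 (-0.26), and was not called in BM24 (0.12), BM4 (-0.09) or the parental stock (-0.14). Hsp67Ba was higher in BM1 (0.54), BM5 (0.40), BM6 (0.39), BM46 (0.26) and the parental stock (0.28), and lower in BM24 (-0.42). With library size alone, the differences of Hsp23 in BM1, BM5, BM6 and BM46 and those of Hsp67Ba in BM5, BM6, BM46 and the parental stock turned negative, and Hsp60C lost its call in BM1, BM5 and the parental stock. Of the differences that turned, those in BM46 were called lower (Hsp23 -0.24, adjusted p = 0.0164, and Hsp67Ba -0.19, adjusted p = 0.0273) and the others were not called. Hsp67Bc was called in BM5 (1.30) and BM6 (0.82). Some of these calls rested on single libraries. Hsp23 lost its call in BM46 without L3 replicate 1, 3 or 4 or adult replicate 2 or 4 (adjusted p up to 0.124) and in BM21 without L3 replicate 1 or 2 or adult replicate 1, 2 or 4 (up to 0.115). Hsp67Ba lost it in BM24 without L3 replicate 2 or 4 or adult replicate 1 (up to 0.0887) and in the parental stock without L3 replicate 2 or 3 or adult replicate 2 (up to 0.140), and Hsp27 in BM24 without L3 replicate 2 or 4 (up to 0.0644). In BM6, where accessory gland RNA was high in replicates 1 and 2, the calls of Hsp23, Hsp60C, Hsp67Ba and Hsp67Bc were lost without those libraries. That fit kept adult BM6 replicates 3 and 4, and replicate 3 had 20387 counts. Fewer libraries and less accessory gland RNA thus cannot be told apart. With DESeq2 the calls of Hsp23, Hsp67Ba and Hsp67Bc in BM6 were lost too (adjusted p = 0.247, 0.491 and 0.349). Without a low-count filter Hsp23 (0.310) and Hsp67Ba (0.525) lost theirs.

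**Figure D3:**
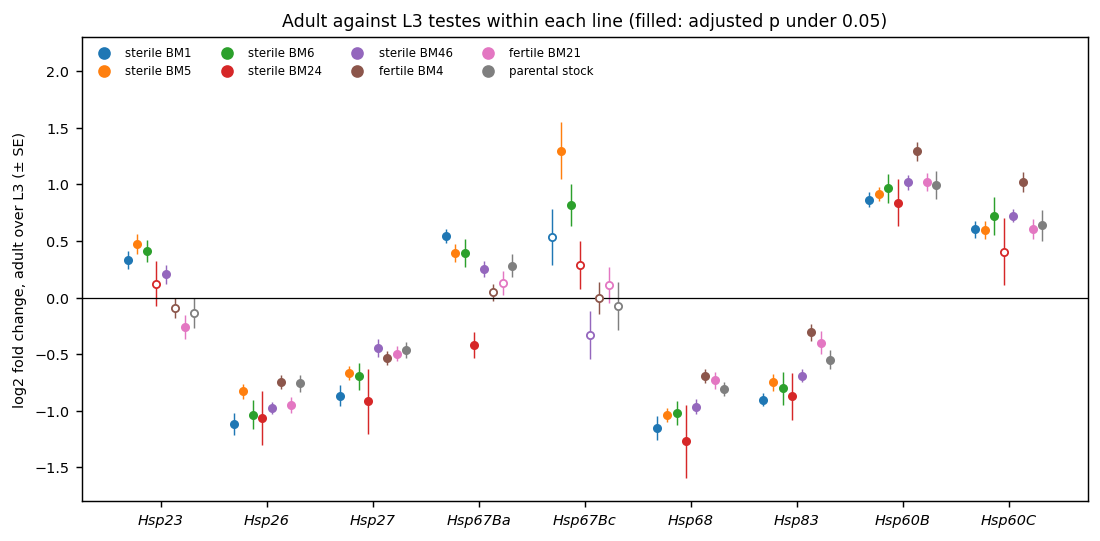
Log2 difference, adult over L3, of 9 heat shock protein genes in each line (sterile lines first); filled points passed an adjusted p of 0.05. Hsp60B lies between 0.84 and 1.29 in the 8 lines and Hsp68 between -1.27 and -0.69, while Hsp23 crosses 0.

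The next comparison set the 5 sterile lines against the 3 fertile ones within a stage, with the summed counts of a line as 1 observation. In adult testes 0 of 9 members passed, where 2.76% of 13596 genes did (edgeR quasi-likelihood test). Unadjusted p-values under 0.05 were found for 2 members, Hsp23 and Hsp68, and for 3029 of all genes, and DESeq2 called 1 member, Hsp23. Adult Hsp23 stood at 334.9 CPM in BM1, 302.9 in BM5, 257.7 in BM6, 259.6 in BM24 and 383.5 in BM46, against 213.5 in BM4, 224.5 in BM21 and 214.9 CPM in the parental stock. Every sterile line was above every fertile one. Hsp23 was the only 1 of the 9 members whose adult line levels did not overlap between the classes, which was so for 17.6% of all genes, with 6.66% of all genes higher in every sterile line. The means were 307.7 ± 53.2 CPM in sterile and 217.6 ± 6.04 CPM in fertile lines (SD, 5 and 3 lines), a log2 difference of 0.52 ± 0.14 with an adjusted p of 0.0856 in edgeR and 0.00544 in DESeq2, which called 1610 genes in all.

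By library, adult Hsp23 had 245.5, 322.2 and 450.7 CPM (lowest, median, highest) in 17 sterile libraries, against 145.4, 222.3 and 255.3 CPM in 12 fertile ones, and these ranges overlapped slightly. Markers of other tissues also ran apart between the classes: summed muscle genes stood at 1242 to 1424 CPM in sterile and 1089 to 1146 CPM in fertile adult lines, and fat body genes at 227.6 to 503.2 CPM in sterile and 194.1 to 212.1 CPM in fertile adult lines. Accessory gland genes (46.65 to 3498 CPM in sterile, 44.18 to 593.4 CPM in fertile) and hemocyte genes (211.8 to 338.9 CPM in sterile, 191.9 to 275.2 CPM in fertile) overlapped. The part of these tissues in the level of Hsp23 was not tested.

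The other members had smaller differences between the classes in adult testes in edgeR. Hsp68 stood at 181.6 ± 24.0 CPM in sterile and 218.6 ± 11.98 CPM in fertile lines, a log2 difference of -0.25 ± 0.11 (adjusted p = 0.213). With limma on line means, where the libraries under 1000000 counts weigh as much as the others, the difference of Hsp68 was -0.90 and did not pass either (adjusted p = 0.675). Hsp60B, the chaperonin of sperm formation, stood at 1304 ± 116 CPM in sterile and 1333 ± 194 CPM in fertile lines, with a difference of -0.01 ± 0.11 (adjusted p = 0.972). For Hsp60C the difference was 0.09 ± 0.11 and for Hsp27 it was -0.09 ± 0.09, with adjusted p-values of 0.655 and 0.568.

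In L3 testes, again 0 of 9 members passed, where 5.53% of 13132 genes did. No member had an unadjusted p under 0.05, and DESeq2 called 0. Hsp83 stood at 2826 ± 199 CPM in sterile and 2577 ± 25.5 CPM in fertile lines, and the line levels did not overlap, as for 14.7% of all genes, but the log2 difference of 0.13 ± 0.07 had an adjusted p of 0.290. L3 Hsp60B stood at 683.5 ± 74.7 CPM in sterile and 615.6 ± 102 CPM in fertile lines (0.15 ± 0.12; adjusted p = 0.479). Markers of other tissues ran apart between the L3 classes too. Summed fat body genes stood at 829.1 to 1581 CPM in sterile and 249.2 to 415.9 CPM in fertile lines. Muscle genes stood at 497.3 to 604 against 409.6 to 466.6 CPM, and hemocyte genes at 191.8 to 254.5 against 133 to 170.8 CPM. Germline and accessory gland sums overlapped. The part of these tissues in the members' levels was not tested.

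Whether the stage difference itself depended on the class was tested as an interaction over the 16 sums. None of the 9 members passed in edgeR, where 0% of 14230 genes did. Unadjusted p-values under 0.05 were found for 3 members and for 1518 genes. These were Hsp23, with 0.44 ± 0.10 (adjusted p = 0.215), Hsp83, with -0.32 ± 0.10 (adjusted p = 0.369), and Hsp68, with -0.26 ± 0.08 (adjusted p = 0.385). DESeq2 called Hsp23 (adjusted p = 0.00481) among 193 genes.

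**Figure D4:**
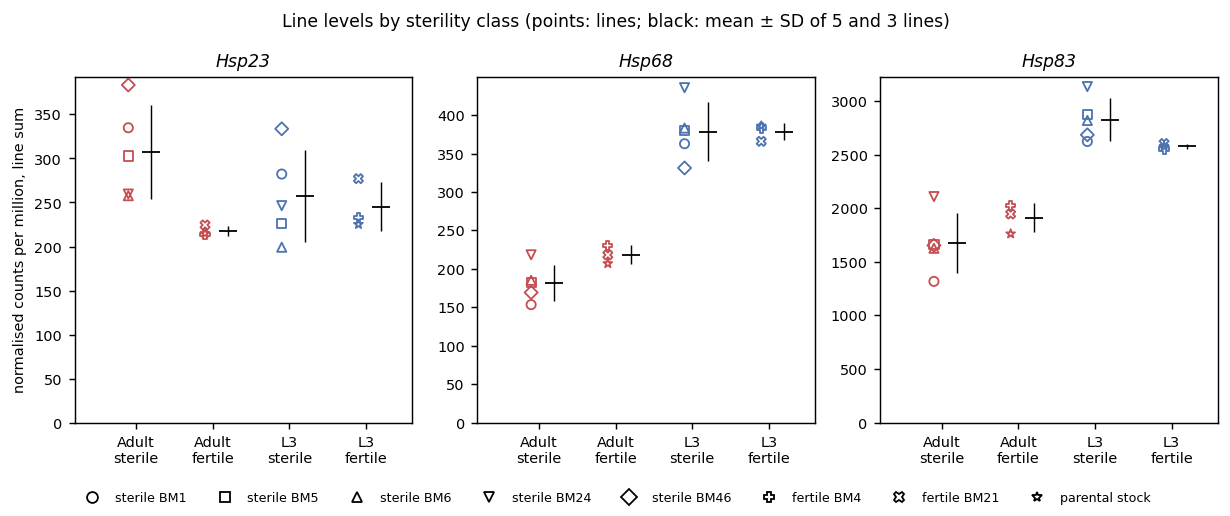
Line levels (CPM) of Hsp23, Hsp68 and Hsp83 in sterile and fertile lines of each stage, with the mean and SD over lines. Adult Hsp23 lies at 257.7 to 383.5 CPM in sterile and 213.5 to 224.5 CPM in fertile lines, and none of these differences passed an adjusted p of 0.05 in edgeR.

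Each translocation line was also compared with the parental stock of the same stage, in a fit over the 32 libraries of that stage. These comparisons share the 4 parental libraries, so the values of the lines are not independent of each other. In adult testes the members called were 3 of 9 in BM1 (51.2% of all genes), 2 in BM5 (31.1%), 2 in BM6 (38.5%), 1 in BM24 (28.5%), 2 in BM46 (34%), 0 in BM4 (17.8%) and 0 in BM21 (19.6%), which is 10 of 63 tests. In these lines the share of members called was below that of all genes. Without the libraries under 1000000 counts, the count was 1 in BM4 (Hsp83) and 2 in BM21 (Hsp83 and Hsp60B). Unadjusted p-values under 0.05 were found for 1 member in each of these lines, Hsp83 in BM4 and Hsp60B in BM21. DESeq2 made 12 of 63 calls over the 7 lines.

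Hsp23 was higher in adult testes of 5 of the 5 sterile lines. Its pools had 359.6, 322.2, 340.9 and 381.9 CPM in BM1, 287, 285.9, 292.2 and 379 CPM in BM5, and 362, 385.6, 352.4 and 450.7 CPM in BM46, against 227.9, 232.3, 176.8 and 145.4 CPM in the parental stock. No pool of these 3 lines overlapped the parental stock. The parental pools were uneven, with the lower values in replicates 3 and 4, of 8688379 and 2971832 counts. Their mean was 195.6 CPM, where the parental line sum stood at 214.9 CPM. All differences below share this reference, and the part of depth in it was not tested. The log2 differences were 0.86 ± 0.13 in BM1 (adjusted p = 3.59e-06), 0.67 ± 0.13 in BM5 (adjusted p = 0.000167) and 0.99 ± 0.13 in BM46 (adjusted p = 5.63e-07). BM6 (0.42 ± 0.14; adjusted p = 0.0156) and BM24 (0.55 ± 0.14; adjusted p = 0.00425), which hold the libraries under 1000000 counts, were called with smaller differences. Without those libraries the difference was 0.42 ± 0.14 in BM24 (adjusted p = 0.0228) and 0.44 ± 0.13 in BM6 (adjusted p = 0.00621). The BM6 call was lost with DESeq2, without the accessory gland-rich libraries, and without BM6 replicate 2 or parental replicate 3 or 4 (adjusted p = 0.0535 to 0.288).

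In the fertile lines adult Hsp23 had 197.3, 226.8, 248.7 and 185 CPM in BM4, and 217.7, 227.7, 255.3 and 216.4 CPM in BM21, both overlapping the parental pools. The log2 differences of 0.14 ± 0.13 in BM4 and 0.23 ± 0.13 in BM21 did not pass (adjusted p = 0.937 and 0.221, the first raised by edgeR's bound, which keeps a p from falling below that of a Poisson test). The test of sterile against fertile lines above is the test of that contrast between lines, and Hsp23 did not pass it in edgeR.

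Hsp67Ba was higher in adult testes of 3 sterile lines, by 0.64 ± 0.09 in BM1 (adjusted p = 2.41e-06), 0.43 in BM5 (adjusted p = 0.000759) and 0.56 in BM46 (adjusted p = 2.68e-05). Its pools had 47.12, 46.82, 50.38 and 48.8 CPM in BM1 and 45.26, 43.58, 44.06 and 51.01 CPM in BM46, against 29.16, 36.62, 27.01 and 33.13 CPM in the parental stock, with no overlap. Hsp68 in BM1 (-0.38 ± 0.15; adjusted p = 0.0379) and Hsp60B in BM6 (-0.34 ± 0.14; adjusted p = 0.0499) completed the calls. The call of Hsp68 was lost in 10 of 39 alternative fits (adjusted p up to 0.160) and that of Hsp60B in 24 of 39 (up to 0.204), among them fits that left out 1 library of another line. Both were lost without parental replicate 2 and without the accessory gland-rich libraries. The parental Hsp60B pools were uneven, at 1732, 1578, 1106 and 1219 CPM, with depths of 21787541, 24650332, 8688379 and 2971832 counts, and the part of depth in this was not tested.

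Without the 3 adult libraries under 1000000 counts, the adult calls numbered 18 of 63, including all 10 above. The share of all genes called was also larger then, at 59.3% in BM1, 40.2% in BM5, 48.3% in BM6, 36.4% in BM24, 43.4% in BM46, 26.6% in BM4 and 28.9% in BM21. The calls gained were Hsp83 in BM1 (-0.27), BM24 (0.34), BM4 (0.28) and BM21 (0.23), Hsp26 in BM1 (-0.32) and BM46 (-0.27), Hsp68 in BM46 (-0.30) and Hsp60B in BM21 (-0.29). Without the 7 libraries rich in accessory gland RNA, 7 calls were made, all among the 10, and Hsp23 in BM6, Hsp60B in BM6 and Hsp68 in BM1 were lost. For BM6 that fit kept replicates 3 and 4, and replicate 3 had 20387 counts. The loss of libraries and that of accessory gland RNA cannot be told apart there.

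In L3 testes the members called were 3 of 9 in BM1 (43.5% of all genes), 4 in BM5 (43.9%), 3 in BM6 (44.9%), 7 in BM24 (42.9%), 3 in BM46 (45.5%), 5 in BM4 (37.7%) and 5 in BM21 (34.8%), which is 30 of 63 tests. Differences were small. Hsp67Ba was higher than in the parental stock (27.88, 25.54, 24.71 and 27.41 CPM) in 6 of 7 lines, by 0.29 to 0.57, with 0.09 in BM6. The chaperonins were lower where called: Hsp60B in BM6 (-0.28), BM24 (-0.22), BM4 (-0.35) and BM21 (-0.30), and Hsp60C in BM6 (-0.19), BM4 (-0.28) and BM21 (-0.24). The call of Hsp60C in BM6 was lost in 17 of 37 alternative fits (adjusted p up to 0.169), and those of Hsp67Ba in BM5 without parental replicate 3 and in BM21 without parental replicate 2 or 3 or BM21 replicate 1 or 2 (adjusted p up to 0.111). L3 Hsp60B pools had 555.6, 627.3, 511.3 and 514.7 CPM in BM4, against 691.8, 713.6, 727 and 750 CPM in the parental stock, without overlap.

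Other small heat shock genes were higher in some L3 lines. Hsp27 was higher in BM1 (0.30), BM5 (0.21), BM24 (0.38) and BM4 (0.27), and Hsp26 in BM24 (0.19), BM4 (0.18) and BM21 (0.26). L3 Hsp23 was higher in BM1 (0.39), BM46 (0.62) and BM21 (0.36), a set of both classes. Hsp83 was higher in BM5 (0.21), BM6 (0.18) and BM24 (0.33). Hsp67Bc was lower in BM5 (-0.74; adjusted p = 0.000505) and BM24 (-0.63; adjusted p = 0.00256), with 3.603, 3.143, 3.298 and 2.518 CPM in BM5, against 5.203, 5.493, 4.509 and 5.738 CPM in the parental stock. Hsp68 was higher in BM24 (0.20) and lower in BM46 (-0.16). Leaving out 1 library ended the calls of Hsp27 in BM5 (parental replicate 2), Hsp83 in BM5 (parental replicate 1 or BM5 replicate 4), Hsp83 in BM6 (parental replicate 1 or 2, or BM6 replicate 1 or 3) and Hsp68 in BM46 (parental replicate 2 or 3, or BM46 replicate 1 or 4), with adjusted p-values of 0.0506 to 0.123.

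A test for any difference among the 8 lines called 5 of 9 members in adult testes (74.1% of all genes) and 9 of 9 in L3 testes (87% of all genes). The adult calls were Hsp23 (adjusted p = 3.94e-07), Hsp67Ba (adjusted p = 7.01e-07), Hsp83 (adjusted p = 0.00363), Hsp26 (adjusted p = 0.0232) and Hsp68 (adjusted p = 0.0332). Without the libraries under 1000000 counts the adult count was 8 (84.7% of all genes), and without those rich in accessory gland RNA it was 2 (61% of all genes).

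**Figure D5:**
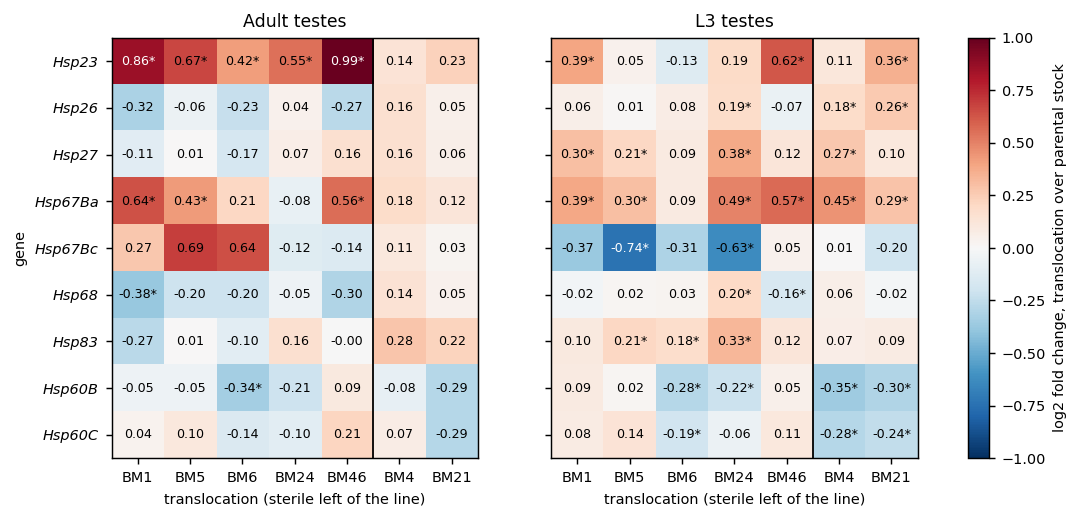
Heat map of the log2 difference of each translocation line against the parental stock, for 9 heat shock protein genes in adult and L3 testes, with an asterisk where the adjusted p was under 0.05; the columns of a stage share the 4 parental libraries. Adult Hsp23 is marked in 5 sterile lines (0.42 to 0.99) and in neither fertile line.

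The difference between the adult and the L3 effect of a translocation was tested in 1 fit over the 64 libraries. It was called for 4 of 9 members in BM1 (22.3% of all genes), 2 in BM5 (12%), 1 in BM6 (11.5%), 1 in BM24 (16.2%), 0 in BM46 (7.61%), 0 in BM4 (9.75%) and 0 in BM21 (4.06%). Hsp23 accounted for 3 of the 8 calls, with an adult effect above the L3 effect by 0.47 in BM1 (adjusted p = 0.0299), 0.62 in BM5 (adjusted p = 0.00662) and 0.55 in BM6 (adjusted p = 0.0232). The BM6 call was lost with median-of-ratios scaling, DESeq2 and without the accessory gland-rich libraries (adjusted p = 0.0633 to 0.222), and that in BM1 with library size alone (0.0875) and without the accessory gland-rich libraries (0.167). In BM1 the opposite held for Hsp26 (-0.36), Hsp27 (-0.40) and Hsp83 (-0.35), and these 3 calls were lost with median-of-ratios scaling and with DESeq2 (adjusted p = 0.0768 to 0.215). Without the accessory gland-rich libraries the calls of Hsp27 (0.0690) and Hsp83 (0.1805) were lost too, as was that of Hsp83 without a low-count filter (0.0607). Hsp67Bc in BM5 had 4.721, 4.889, 9.504 and 11.27 CPM in adult testes against 4.879, 4.796, 6.626 and 1.473 CPM in the adult parental stock, and its adult effect was above its L3 effect by 1.41 (adjusted p = 0.00349). Its pools spread widely at these levels. In BM24 the difference of effects for Hsp67Ba was -0.56 (adjusted p = 0.0074). Of the lines with 0 calls, BM46 (Hsp23) and BM4 (Hsp60B) had 1 member each with an unadjusted p under 0.05 and BM21 had 0. DESeq2 made 4 calls over the 7 lines, and 4 were made without the accessory gland-rich libraries.

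Among 50 other genes of chaperones, cochaperones and the heat shock factor, 48 were matched in the table and 46 could be tested over the lines. Between adult and L3 testes 41 of 46 were called, 18 higher and 23 lower, with a median difference of -0.06 against 0.04 over all genes, of which 78.5% were called, 40.2% higher and 38.3% lower. The largest rise was that of l(2)efl, an alpha-crystallin small heat shock protein at 4.11 ± 1.99 CPM in adult and 0.118 ± 0.0432 CPM in L3 testes (5.03 ± 0.29 on the log2 scale), followed by the inducible Hsp70Bc (1.97) and Hsp70Bb (1.89) and by the testis-enriched Hsc70-1 (1.87). Levels were low for Hsp70Bc (1.26 ± 0.934 CPM in adult, 0.288 ± 0.212 CPM in L3 testes) and Hsp70Bb (2.31 ± 1.39 and 0.570 ± 0.18 CPM). As near-identical copies, their separate values are uncertain. The 8 subunits of the cytosolic chaperonin CCT, which folds tubulin and actin, were all lower in adult testes, by -1.08 (CCT7) to -0.79. Hsf, the transcription factor that switches on heat shock genes, was lower too (-0.61). The family mates of the Hsp60 members moved in opposite directions: Hsp60D was higher (1.31) and Hsp60A lower (-0.32).

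Between sterile and fertile adult lines 2 of these 46 genes were called, where 2.76% of all genes were. Both were CCT subunits and both were lower. These calls lay near the threshold of 0.05, and how they fare in the alternative fits was not examined. CCT2 stood at 112.9 ± 4.93 CPM in sterile and 143.4 ± 8.30 CPM in fertile lines (-0.32; adjusted p = 0.0445), and CCT3 at 105 ± 4.76 CPM in sterile and 133.7 ± 9.81 CPM in fertile lines (-0.33; adjusted p = 0.0499). In L3 testes 1 of 44 was called, where 5.53% of all genes were. It was CG43851, at 36.1 ± 3.15 CPM in sterile and 24.9 ± 2.82 CPM in fertile lines (0.54 ± 0.10; adjusted p = 0.0170). The difference of Hsf in adult lines, -0.21, did not pass (adjusted p = 0.140).

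How the members varied together among pools is given here as description. Across the 29 adult and 32 L3 libraries, as deviations from their group means, log2 levels of Hsp60B and Hsp60C had a Pearson correlation of 0.916, with 0.947 within adult and 0.857 within L3 libraries. Hsp26 and Hsp27 correlated at 0.836 among adult and 0.51 among L3 libraries, Hsp26 and Hsp68 at 0.813 among adult and 0.472 among L3 libraries, and Hsp27 and Hsp68 at 0.8 among adult and -0.0569 among L3 libraries. Hsp26 and Hsp83, both lower in adult testes, correlated at 0.148 among adult and 0.153 among L3 libraries. Hsp83 and Hsp60C, which moved opposite ways with stage, correlated at 0.764 among adult and 0.597 among L3 libraries. These points share their library and its scaling. Over the 8 adult line means, Hsp23 correlated at 0.821 with Hsp67Ba and at -0.86 with Hsp68.

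The genes whose deviations across those 61 libraries were most like those of Hsp60B were S-Lap3, a sperm leucylaminopeptidase (0.943), CG10869 (0.937) and CG6059 (0.935), out of 10077 genes. For Hsp60C they were CG10869 (0.98), CG3085 (0.956) and S-Lap3 (0.938). Over the 16 means of line and stage, Hsp83 was most like qin (0.994), a piRNA pathway gene of the germline, and Hsc70-4 (0.993). Hsp26 was most like Non2 (0.994) there, and among the deviations like CCT2 (0.813). Hsp23, whose stage difference was not called, came closest to mRpL51 (0.827) over the 16 means. Among the deviations it came closest to the odorant-binding protein gene Obp99a (0.835). The 16 means span both stages, so genes that share a stage difference correlate there whatever their lines do. Hsp26 and Hsp83 correlated at 0.953 over the 16 means, at 0.905 over the adult line means and at 0.145 over the L3 line means. Hsp26 varied least among L3 pools, with an SD of 0.0589 in log2 CPM within groups, at percentile 1.69 of 13447 genes, where the median gene had 0.1585. Hsp67Bc varied most among adult pools, at 0.514 (percentile 85.2), where the median gene had 0.1805, and Hsp23 was at 0.184.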

How the data were processed

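The deposited counts are whole reads per gene in 64 libraries. Per the submitters' processing notes, the tools named are bcl2fastq 1.8, cutadapt, HISAT2 2.1.0 and featureCounts 1.6.1, and per the labels' protocols the libraries were polyA-selected, stranded (dUTP) and read as 50 bp single ends, 8 to a lane. Neither the build used for alignment nor whether counting used strand is named in the sources used here. Of 17606 gene IDs, 17494 have the coordinates of BDGP6. Genes covered by exons of the opposite strand kept their counts, as strand-specific counting gives. The genotype labels hold a placeholder symbol that is read here as the letter y.

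Groups came from the sample titles. The members and gene lists were chosen with earlier results of these data known. Tests used edgeR 4.0.16 (quasi-likelihood F test with its default Poisson bound, TMM scaling, filterByExpr) in R 4.3.3, with Benjamini-Hochberg adjustment over all genes tested and a threshold of 0.05. Summed counts per line served for class (5 lines against 3), for stage and for their interaction, with single libraries within lines and for translocations. Genes named outside the members are the 4 largest called stage differences in each direction of the chaperone list and its class calls, together with family mates, Hsf and the 3 genes most like each member, some of which are printed. TMM-scaled CPM, RPKM and likeness (Pearson, log2 CPM with a prior count of 2) were computed from the counts. Alternatives were median-of-ratios scaling, library size alone, no filter, DESeq2 1.42.0, limma 3.58.1, plate row, replicate number, and libraries or lines left out. Plate row stands for the letter that opens the column name of a library, and the labels name no plate. Among adults the parental stock alone has C and BM46 alone has F, so neither informs the class difference in that fit. In L3 testes the same holds for the sterile BM24 and BM46, which alone have C. Library pairs were compared for duplicates: 88 pairs within groups differed by a chi-square per degree of freedom of 2.432 to 60.72, and 0 were identical.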

Additional observations from a re-analysis of the deposited data

Results flagged for a closer look

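In 14 of 144 groups of 4 libraries (a member in a line and stage), 1 library lay far from the other 3. Chance gives about 1 in 20 such groups, and 10 of the 14 were in adult libraries under 1000000 counts. BM6 replicate 3, with 20387 counts, was low for Hsp23 (141.9 CPM), Hsp26 (35.49 CPM), Hsp27 (70.97 CPM), Hsp67Bc (0 CPM), Hsp68 (35.49 CPM), Hsp83 (851.7 CPM), Hsp60B (567.8 CPM) and Hsp60C (674.2 CPM). These values stand on 0 to 24 counts. BM24 replicate 3, with 43347 counts, was low for Hsp68 (0 CPM, 0 counts) and Hsp60C (658.4 CPM, 27 counts).

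The other 4 were in libraries of normal depth. Adult BM5 replicate 4 had 379 CPM of Hsp23, where the other pools had 285.9 to 292.2 CPM. Adult BM46 replicate 2 had 6.479 CPM of Hsp67Bc, where the others had 3.369 to 3.624 CPM. L3 BM1 replicate 2 had 37.3 CPM of Hsp67Ba, where the others had 32.46 to 33.09 CPM. L3 BM21 replicate 1 had 529.7 CPM of Hsp60B, where the others had 586.2 to 594.2 CPM.

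The effect of a translocation against the parental stock differed between adult and L3 testes for 8 pairs of a gene and a line, by edgeR's test of the difference with adjusted p-values. In BM1, Hsp23 stood at 0.86 in adult and 0.39 in L3 testes on the log2 scale (difference 0.47 ± 0.16, SE; adjusted p = 0.0299). Also in BM1, Hsp83 stood at -0.27 in adult and 0.10 in L3 testes (-0.35 ± 0.13; adjusted p = 0.0464), Hsp27 at -0.11 in adult and 0.30 in L3 testes (-0.40 ± 0.14; adjusted p = 0.0351), and Hsp26 at -0.32 in adult and 0.06 in L3 testes (-0.36 ± 0.13; adjusted p = 0.0317). In BM5, Hsp23 stood at 0.67 in adult and 0.05 in L3 testes (0.62 ± 0.16; adjusted p = 0.00662), and Hsp67Bc at 0.69 in adult and -0.74 in L3 testes (1.41 ± 0.35; adjusted p = 0.00349). In BM6, Hsp23 stood at 0.42 in adult and -0.13 in L3 testes (0.55 ± 0.17; adjusted p = 0.0232). In BM24, Hsp67Ba stood at -0.08 in adult and 0.49 in L3 testes (-0.56 ± 0.15; adjusted p = 0.0074). The effects of the lines share the parental libraries. Of these 8 calls, 5 were lost in at least 2 alternative fits: Hsp83, Hsp27 and Hsp26 in BM1 and Hsp23 in BM6 with median-of-ratios scaling and with DESeq2, and Hsp23 in BM1 with library size alone and without the accessory gland-rich libraries.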

How the results depend on the processing

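Depth limits the adult results: 3 adult libraries hold under 1000000 counts and 1 parental library 2971832. Counts of member calls moved as follows. DESeq2 called 1 member between sterile and fertile adult lines and 1 in the interaction, where edgeR called 0 in each. Adult calls against the parental stock numbered 10, against 16 with library size alone and 18 without libraries under 1000000 counts. The test of any adult difference among lines called 5, against 8 without those libraries and 2 without those rich in accessory gland RNA. The adult minus L3 effect had 8 calls, against 4 with median-of-ratios scaling, 4 with DESeq2 and 4 without the accessory gland-rich libraries. The cause was not tested.

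Leaving out 1 library gave 58 to 61 stage calls within lines (60 with all), 8 to 14 adult and 25 to 31 L3 calls against the parental stock (10 and 30 with all), and 4 to 6 adult and 9 L3 calls among lines. Leaving out 1 line gave 6 to 7 stage calls over lines and 0 in the class and interaction tests. The replicate numbers did not pair the samples: deviations of same-numbered libraries had a median correlation of 0.000122 in adult and -0.0028 in L3 testes, and 8 of 29 adult and 9 of 32 L3 libraries were most like one of their own number. With the replicate number as a block, 58 stage calls within lines, 9 adult and 29 L3 calls against the parental stock and 5 adult and 9 L3 calls among lines were made.

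Library size alone turned the stage difference negative for Hsp23 (-0.32 over lines, -0.18 in BM1, -0.0036 in BM5, -0.046 in BM6, -0.24 in BM46), Hsp67Ba (-0.23 over lines, -0.077 in BM5, -0.074 in BM6, -0.19 in BM46, -0.13 in the parental stock) and Hsp67Bc (-0.11 over lines). Of these, Hsp23 and Hsp67Ba were called lower on that scale over the lines and in BM46. That scale sets the stage differences of all genes lower than TMM scaling does, and which scale is nearer the amounts of RNA was not tested. Uncalled class differences near 0 also changed sign. In adult testes these were Hsp60B (0.016 without accessory gland-rich libraries, 0.058 with plate row as a covariate, and -0.11 to 0.092 on leaving out a line), Hsp60C (-0.031 to 0.17 on leaving out a line) and Hsp67Bc (-0.47 with limma on line means). In L3 testes they were Hsp68 (0.0043 with median-of-ratios scaling and 0.0043 with DESeq2, 0.0083 without a filter, 0.0059 with limma, and -0.048 to 0.049 on leaving out a line) and Hsp23 (-0.034 with plate row, -0.036 to 0.18 on leaving out a line). The interaction of Hsp60C was -0.19 to 0.037 on leaving out a line. Over all genes, adult class calls numbered 375, against 1610 with DESeq2, 47 with plate row, 19 with limma and 110 to 378 on leaving out a line, and L3 class calls 726, against 1400 with DESeq2, 237 with plate row and 404 to 851 on leaving out a line.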
